A study of Mus musculus with 6 samples.

Results

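Transcripts of 34 genes known for their expression in macrophages were followed in cultures of mouse embryo fibroblasts. The genes were chosen by symbol, and each matched 1 of the 49315 Ensembl identifiers in the count files. Poly(A)-selected RNA had been sequenced from 6 lines at passage 4, of the C57BL/6 strain. The SG lines (SG1, SG2 and SG3) were p53-/-;MDMXSG/SG, which carry W201S and W202G in both copies of Mdm4, the gene of MDMX, as a knock-in. The WT lines (WT3, WT9 and WT11) were p53-/-;MDMXWT/WT, so that all 6 lacked p53. Each line came from 1 embryo, was grown in DMEM with serum and received no treatment. The study asked which transcripts change when MDMX can no longer bind the kinase CK1-alpha. The labels describe all 6 as embryo fibroblasts and mention no sort or depletion of blood cells.

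Macrophages are phagocytes that arise in the embryo from yolk sac and fetal liver progenitors and settle in nearly every tissue. Their identity rests on the transcription factor PU.1 and on signalling from the growth factors CSF1 and IL-34 through the receptor CSF1R. Fibroblast cultures are made from dissociated embryo tissue and fibroblasts secrete CSF1, so tissue macrophages can persist in them. In a bulk culture, a change in the number of such cells and a change in RNA per cell cannot be told apart, and neither can reads from macrophages and from fibroblasts that express the same gene.

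Total counts were between 54852998 and 64434605 in SG lines and between 49317925 and 65457242 in WT lines. Levels are given as CPM, the count scaled by library size and TMM factor, and levels of different genes are compared only per kilobase of exon (RPKM). All 12 listed fibroblast genes, Col1a1 and Vim among them, were expressed, with a summed level of 23500 to 26210 CPM in SG lines and 22660 to 23350 CPM in WT lines. Of these, 1 (Fn1, fibronectin) rose and 3 (Thy1, Prrx1 and S100a4) fell in SG lines in the genotype test described below, each call being lost in at least 2 of 14 alternative fits. Mdm4 averaged 60.04 ± 3.36 CPM over the SG lines and 60.4 ± 2.33 CPM over the WT lines (SD, n = 3 each), which does not check the knock-in, since exchanged codons are counted like the original ones. Lines SG1 and WT9 carried Xist, at 399 and 343 CPM, against at most 0.700 CPM in the other 4.

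Line SG3 had the highest and line WT11 the lowest level of macrophage transcripts, and the other 4 lines lay between them. The members drew 3309 counts in SG1, 4227 in SG2 and 8654 in SG3. They drew 4097 counts in WT3, 4977 in WT9 and 1606 in WT11. Relative to the unscaled library total this was 60.3, 65.6 and 147.5 CPM in the SG lines (95% Wilson intervals 58.3 to 62.4, 63.7 to 67.6 and 144.4 to 150.6). In the WT lines it was 83.1, 76.03 and 26.6 CPM (80.6 to 85.7, 74.0 to 78.2 and 25.3 to 27.9). Such intervals cover counting error only, since reads without molecular identifiers are not independent molecules. After TMM scaling the summed level averaged 91.4 ± 49.2 CPM over the SG lines and 61.6 ± 30.3 CPM over the WT lines (SD, n = 3 each), a ratio of 1.48, and the genotypes overlapped. SG3 stood 2.35-fold above the mean of SG1 and SG2, and WT11 at 0.339 of the mean of WT3 and WT9. All 34 members had a count in each SG line, and 33, 32 and 33 had one in WT3, WT9 and WT11.

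Of the 34 members, 30 had enough reads to be tested. In all 30, SG3 was the highest and WT11 the lowest of the 6 lines. Over all 16068 tested genes, that order held in 6.30%, with SG3 highest in 21.1% and WT11 lowest in 22.4%. The median SG3 to WT11 ratio was 7.13 over the 30 members and 1.00 over all tested genes, and 24 members had a ratio of at least 3, as had 2.00% of all tested genes. The 4 members below the filter (Aif1, Clec4n, Clec7a and Cd163) did not share that order. The members were chosen with this order of the 2 lines already known for Lyz2 and some other markers, so that it is no independent observation.

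**Figure D1:**
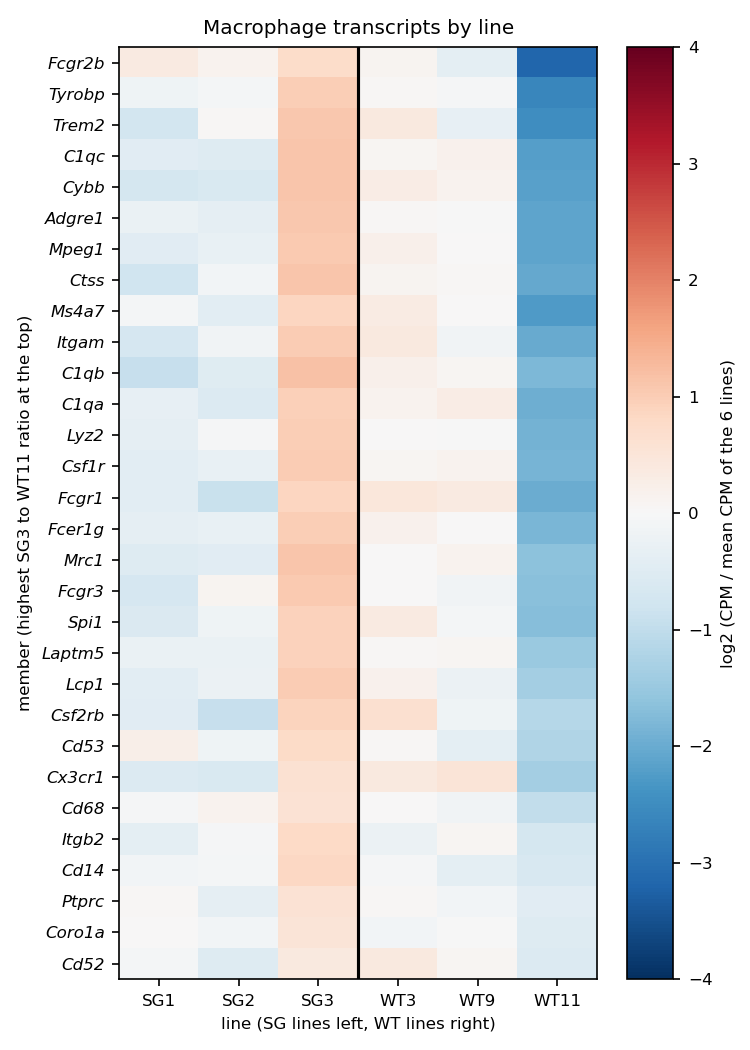
Level of each of the 30 tested macrophage transcripts in the 3 SG lines (left) and the 3 WT lines (right), as log2 of the CPM over the gene's mean CPM in the 6 lines. SG3 is the highest and WT11 the lowest column for all 30, and Cd52, Coro1a and Ptprc at the bottom have the smallest range.

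Per length, Lyz2 was the most abundant member at a mean of 11.2 RPKM, followed by C1qb (3.04 RPKM), Cd68 (2.74), Cd14 (2.54), C1qa (2.46) and Ctss (1.97). Lyz2 encodes the macrophage lysozyme. It was at 10.96, 13.8 and 28.3 CPM in SG1, SG2 and SG3, and at 14.3, 13.9 and 3.80 CPM in WT3, WT9 and WT11. Ctss, the lysosomal protease cathepsin S, was at 1.54, 2.51 and 5.74 CPM in the SG lines and at 2.88, 2.77 and 0.650 CPM in the WT lines. For both genes the genotypes overlapped, with SG1 and SG2 below WT3 and WT9. Mpeg1, which encodes the pore-forming protein perforin-2, was at 4.29, 4.73 and 12.07 CPM in the SG lines and at 6.72, 5.89 and 1.37 CPM in the WT lines. Laptm5, a lysosomal membrane protein of blood cells, ranged from 2.94 to 6.64 CPM in SG and from 1.25 to 3.70 CPM in WT lines. Cd68, the endosomal glycoprotein macrosialin, had a smaller range, at 3.298, 3.81 and 5.19 CPM in SG lines and 3.46, 3.15 and 1.75 CPM in WT lines. Counts of Lyz2 could be shared with the near-identical copy Lyz1, which had at most 1 count in any line.

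C1QA, C1QB and C1QC are the chains of C1q, the first component of the classical complement pathway, which tissue macrophages secrete. Their genes lie side by side on chromosome 4 and all had SG1 and SG2 below WT3 and WT9. C1qa was at 2.03, 1.74 and 4.96 CPM in SG1, SG2 and SG3 and at 2.84, 3.13 and 0.666 CPM in WT3, WT9 and WT11. C1qb was at 1.76, 2.37 and 7.46 CPM in the SG lines and at 3.82, 3.50 and 0.949 CPM in the WT lines. C1qc was at 1.69, 1.63 and 4.98 CPM in the SG lines and at 2.42, 2.61 and 0.4997 CPM in the WT lines. The SG3 to WT11 ratio was 7.45 for C1qa, 7.86 for C1qb and 9.97 for C1qc, with exact 95% counting intervals of 5.34 to 10.7, 5.96 to 10.6 and 6.84 to 15.1 that overlap.

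The Fc receptors and the myeloid adaptors had SG3 to WT11 ratios whose counting intervals overlap. Tyrobp encodes DAP12 and Fcer1g the Fc receptor gamma chain, small membrane adaptors that carry the signal of many myeloid receptors. Tyrobp was at 0.815, 0.878 and 1.83 CPM in SG1, SG2 and SG3, and at 0.940, 0.887 and 0.150 CPM in WT3, WT9 and WT11. Fcer1g was at 1.14, 1.21 and 2.94 CPM in the SG lines and at 1.68, 1.48 and 0.416 CPM in the WT lines. Trem2, a lipid-sensing receptor that signals through DAP12, was at 0.399, 0.674 and 1.39 CPM in the SG lines and 0.860, 0.520 and 0.117 CPM in the WT lines. WT11 held 9 counts of Tyrobp and 7 of Trem2, so that their SG3 to WT11 ratios of 12.2 and 11.9 have wide counting intervals, from 6.20 to 27.5 and from 5.52 to 30.5. Of the receptors for immunoglobulin G, Fcgr3 ranged from 0.598 to 1.97 CPM in SG and from 0.300 to 0.960 CPM in WT lines, and the high-affinity receptor Fcgr1 from 0.251 to 0.839 CPM in SG and from 0.117 to 0.640 CPM in WT lines. The ratios of Fcer1g (7.07, interval 4.63 to 11.2), Fcgr1 (7.195, interval 3.24 to 18.8) and Fcgr3 (6.57, interval 3.975 to 11.5) lay near the members' median.

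Fcgr2b, the inhibitory Fc receptor, was the only tested member whose SG lines all lay above all WT lines. It was at 0.381, 0.329 and 0.496 CPM in SG1, SG2 and SG3, and at 0.320, 0.229 and 0.0333 CPM in WT3, WT9 and WT11. SG2, the lowest SG line, and WT3, the highest WT line, lay close together, and WT11 held 2 counts. This is 1 of 30 members, and 10.0% of all tested genes had such an order. Fcgr2b and Fcgr3 are similar in sequence and can share reads.

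Spi1 encodes PU.1, and its transcript was low. Its level was 0.471, 0.627 and 1.34 CPM in SG1, SG2 and SG3 and 0.9003, 0.657 and 0.217 CPM in WT3, WT9 and WT11. Csf1r, the receptor of CSF1 and IL-34, was at 4.42, 4.81 and 11.8 CPM in the SG lines and at 6.18, 6.45 and 1.63 CPM in the WT lines. For Csf1r, too, SG1 and SG2 were both below WT3 and WT9. Its exons share 871 bases with Hmgxb3 on the other strand, a gene that averaged 56.2 ± 1.65 CPM over the SG lines and 53.9 ± 0.637 CPM over the WT lines (SD, n = 3 each) and did not follow the order of the Csf1r levels. Csf2rb, the shared chain of the receptors of GM-CSF, IL-3 and IL-5, was at 0.217, 0.157 and 0.548 CPM in the SG lines and 0.460, 0.260 and 0.133 CPM in the WT lines, and can share reads with its near-copy Csf2rb2.

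Cx3cr1, the fractalkine receptor of microglia and other resident macrophages, had the lowest fold change between genotypes. It was at 1.11, 1.05 and 2.48 CPM in SG1, SG2 and SG3 and at 2.12, 2.29 and 0.633 CPM in WT3, WT9 and WT11. WT3 and WT9 thus came close to SG3, and the log2 fold change was -0.12 (SE 0.51), one of 2 below 0. The other was that of Cd52, at -0.04 (SE 0.33), whose level in WT3 (0.7002 CPM) likewise came close to that in SG3 (0.702 CPM). Of 6 microglial genes, Siglech had no count in any library, and of the 5 tested 0 had SG3 highest and WT11 lowest. Over all tested genes that order held in 6.30%, so that 5 genes are too few to be told apart from that share.

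Among surface and adhesion molecules, Adgre1 encodes F4/80, the antigen most often used to stain mouse macrophages. It was at 1.32, 1.22 and 3.36 CPM in SG1, SG2 and SG3 and at 1.64, 1.58 and 0.366 CPM in WT3, WT9 and WT11. Mrc1, the mannose receptor, was at 1.31, 1.36 and 3.99 CPM in the SG lines and at 1.88, 2.05 and 0.600 CPM in the WT lines. Both had SG1 and SG2 below WT3, and their SG3 to WT11 ratios were 9.16 and 6.65. Itgam (CD11b) ranged from 0.381 to 1.22 CPM in SG and from 0.150 to 0.800 CPM in WT lines, and Ms4a7, a tetraspan membrane protein of macrophages, from 0.3604 to 0.873 CPM and from 0.0999 to 0.600 CPM. Itgb2 (CD18), the chain that pairs with CD11b and with other leukocyte integrins, had a ratio of 2.80 against 8.11 for Itgam, with counting intervals of 2.02 to 3.94 and 4.04 to 18.5 that do not overlap. WT11 held 9 counts of Itgam. Of its 5024 exon bases, Itgam shares 3450 with Gm49368 on the same strand, a gene with at most 1 count in any line. How shared reads were counted is not known, so that the level of Itgam is uncertain. Cybb, the catalytic subunit of the phagocyte oxidase, was at 0.652, 0.690 and 2.29 CPM in the SG lines and at 1.30, 1.16 and 0.233 CPM in the WT lines, a ratio of 9.84.

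A group of members had smaller ratios between the same 2 lines. Cd14, the coreceptor of bacterial lipopolysaccharide, was at 3.66, 3.81 and 7.04 CPM in SG1, SG2 and SG3 and at 3.84, 3.03 and 2.57 CPM in WT3, WT9 and WT11. Ptprc (CD45), the phosphatase carried by all nucleated blood cells, was at 1.81, 1.35 and 2.60 CPM in the SG lines and at 1.80, 1.64 and 1.28 CPM in the WT lines. In both, SG3 stood apart more than WT11 did. Coro1a, an actin regulator of leukocytes, was at 2.56, 2.30 and 3.58 CPM in the SG lines and at 2.34, 2.46 and 1.77 CPM in the WT lines. The ratios were 2.74 for Cd14, 2.97 for Cd68, 2.80 for Itgb2, 2.03 for Ptprc, 2.03 for Coro1a and 1.92 for Cd52, a small surface glycopeptide of leukocytes. All 6 counting intervals end below 4, while that of Lyz2 is 6.48 to 8.59 around a ratio of 7.44. The tetraspanin gene Cd53 and Lcp1, the actin bundling protein L-plastin, lay between, at 3.93 and 5.22. Coro1a shares 26 exon bases with Bola2 and Cd52 172 with Crybg2, both on the other strand, and whether the counts used strand was not given in the sources used here.

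**Figure D2:**
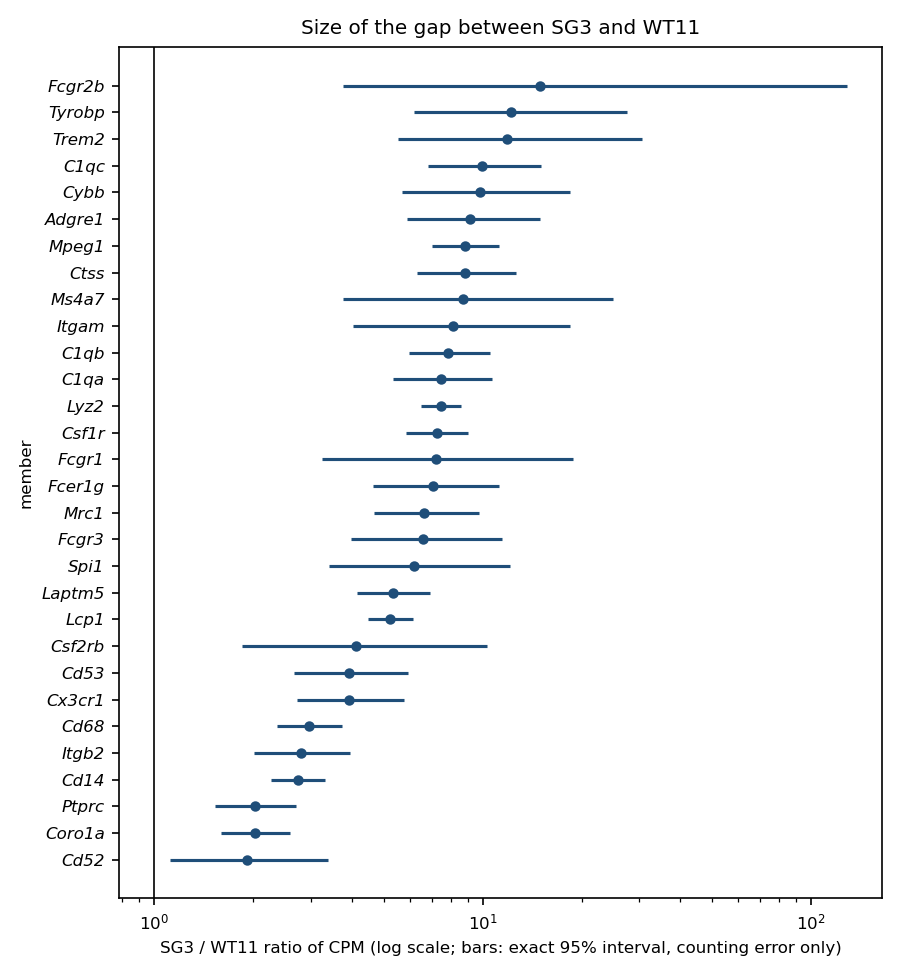
Ratio of the CPM in SG3 to that in WT11 for the 30 tested members, on a log scale, with exact 95% intervals that cover counting error only and are no test between genotypes. Ratios run from 1.92 for Cd52 to 14.9 for Fcgr2b, and the 6 lowest are below 3.

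Aif1, Clec4n, Clec7a and Cd163 were close to the detection limit, where 3 counts correspond to 0.0459 to 0.0600 CPM per line. Aif1, the calcium-binding protein IBA1, had 3, 2 and 6 counts in the SG lines and 4, 7 and 1 in the WT lines. The scavenger receptor gene Cd163 had 1, 4 and 2 counts in the SG lines and 1, 0 and 1 in the WT lines, and Clec4n (dectin-2) had 10 counts over the SG lines together and 8 over the WT lines together. These 3 genes were too sparse to show a difference at this depth. Clec7a (dectin-1), a receptor of fungal glucans, had 6, 5 and 6 counts in the SG lines and 0, 0 and 1 in the WT lines, a ratio of 16.8 with an exact 95% counting interval of 2.63 to 703. With no count filter, edgeR's quasi-likelihood test gave Clec7a an adjusted p of 0.0744, which misses the threshold, with a fitted log2 fold change of 3.65 that depends on the prior count. In that fit 0 of the 34 members passed, against 3.33% of all genes tested in it. The Clec7a counts were alike in the 3 SG lines and not highest in SG3 alone.

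**Figure D3:**
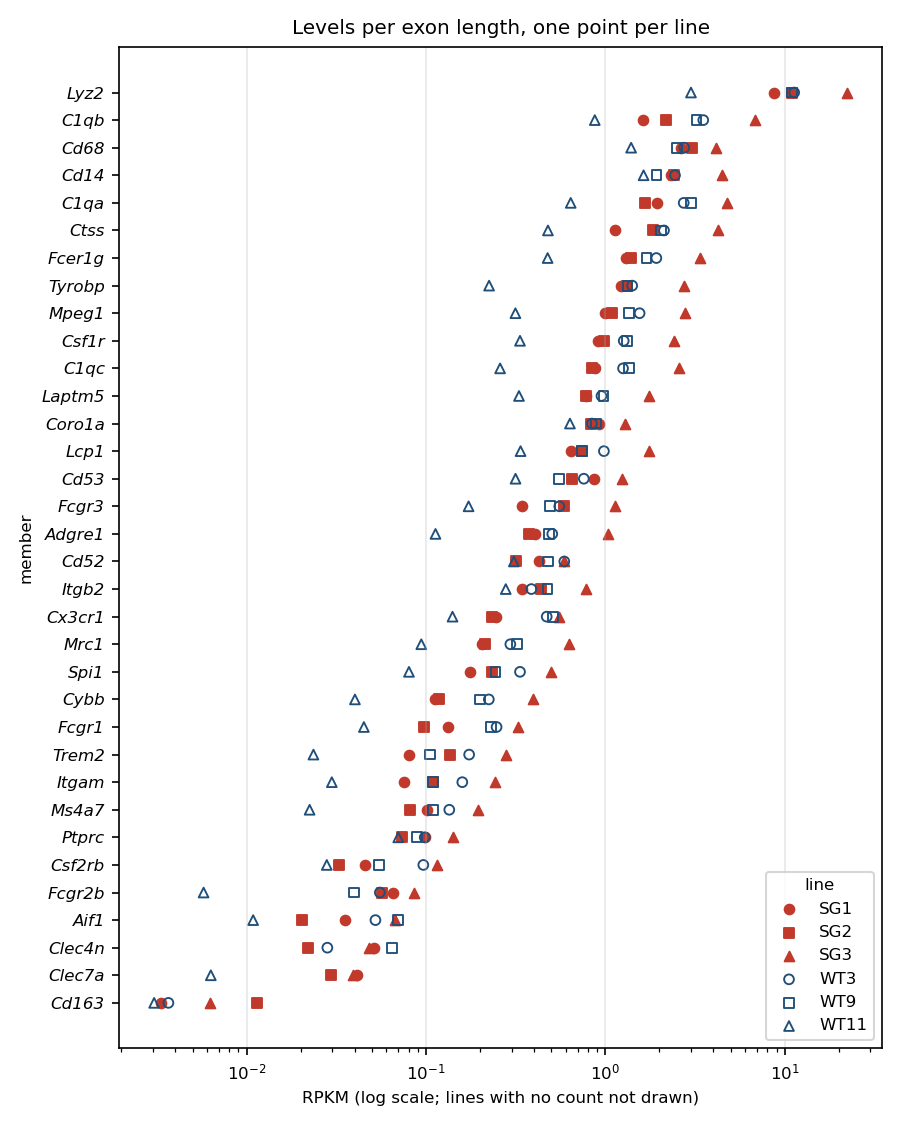
Level of all 34 members per kilobase of exon (RPKM, log scale), with 1 point per line, filled for SG and open for WT lines. Lyz2 is the most abundant at a mean of 11.2 RPKM and Cd163 the least at 0.00463 RPKM, and the open triangles of WT11 lie left of the other lines in most rows.

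Between genotypes, none of the 30 tested members passed the threshold of an adjusted p of 0.05 in edgeR's quasi-likelihood test, against 1.90% of all tested genes (306 of 16068). At an unadjusted p under 0.05 the count was 0 of 30, against 15.5% of all tested genes. With DESeq2, 0 of the 30 members with an adjusted p passed, against 5.99% of all genes with one. There 4 of 34 (Cd14, Cd68, Cd53 and Clec7a) had an unadjusted p under 0.05, against 7.72% of all genes. The fitted log2 fold change, SG over WT, was above 0 in 28 of 30 members, against 50.7% of all tested genes, with a median of 0.56 against 0.00. It ranged from -0.12 to 1.07, with SEs from 0.21 to 0.67. The lowest adjusted p in edgeR's test was 0.339, for Cd14, which averaged 4.84 ± 1.91 CPM over the SG lines and 3.14 ± 0.646 CPM over the WT lines (SD, n = 3 each; log2 fold change 0.62, SE 0.28). Lyz2 averaged 17.7 ± 9.27 CPM over the SG lines and 10.7 ± 5.95 CPM over the WT lines (log2 fold change 0.73, SE 0.51, adjusted p = 0.561). Tyrobp averaged 1.18 ± 0.570 CPM over the SG lines and 0.659 ± 0.442 CPM over the WT lines (log2 fold change 0.84, SE 0.58, adjusted p = 0.559). Each of these 3 differences was smaller than the SD among the SG lines and larger than that among the WT lines, and the log2 fold change of Cd14 was over 2 SEs. At these SEs a 2-fold change, a log2 fold change of 1, would lie within 2 SEs for most members.

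The fold changes depended on which lines entered the fit. Without SG3 the median of the 30 log2 fold changes was 0.00, with 15 of 30 above 0, and without WT11 it was 0.17, with 24 of 30 above 0. Without both it was -0.42, with 5 of 30 above 0 (Cd14, Cd68, Cd53, Coro1a and Fcgr2b). SG3 and WT11 were picked as the highest and lowest lines of these same members, so that leaving out both had to lower the fold changes. The fit without both is therefore a description, and its counts and p-values are no test of genotype. In that fit of 2 lines per genotype, 0 of 30 members passed in edgeR's test, against 0.314% of all genes (51 of 16248), and 10 of 30 had an unadjusted p under 0.05, against 13.1% of all genes. Those 10 had log2 fold changes below 0, and the lowest adjusted p was 0.0928, for Cx3cr1 (log2 fold change -1.03, SE 0.17). C1qb had a log2 fold change of -0.82 (SE 0.18), Cybb of -0.87 (SE 0.22) and Csf1r of -0.45 (SE 0.11). When the 2 Xist-carrying lines were left out, SG1 and WT9, all 30 were above 0 with a median of 0.97, and 0 passed. The median over all tested genes was 0.00 in each of these 4 fits.

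**Figure D4:**
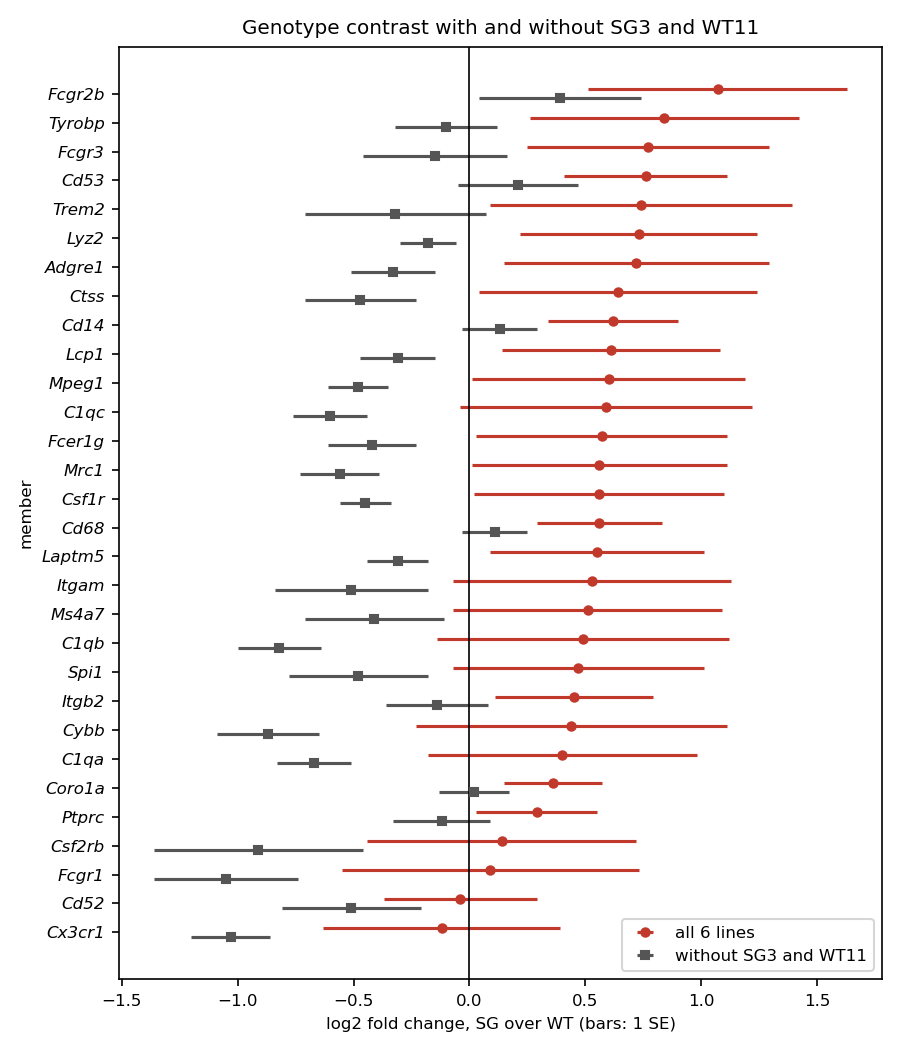
Log2 fold change, SG over WT, of the 30 tested members from all 6 lines (circles) and without SG3 and WT11 (squares), with bars of 1 SE. With all lines 28 lie above 0, and without SG3 and WT11 5 do. SG3 and WT11 were picked as the highest and lowest lines of these members, so that the shift is built in.

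The spread between lines of the same genotype was large for these genes. The biological coefficient of variation, edgeR's estimate of the relative SD between lines beyond counting noise, had a median of 0.453 over the 30 members and 0.0887 over all tested genes. Among the 6503 tested genes within the members' range of average level, it was 0.147. It was above 0.289, the 95th percentile of all tested genes, in 24 of 30 members. It was highest for Cybb, at 0.562, and lowest for Coro1a, at 0.186, and the 6 members under that percentile, Cd14, Cd68, Ptprc, Cd52, Itgb2 and Coro1a, were the 6 with the smallest SG3 to WT11 ratios. Both measures draw on how far SG3 and WT11 lay from the other lines, so that this match is built in. The members were chosen with the order of SG3 and WT11 known for some of them, so that their large spread is no independent observation.

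**Figure D5:**
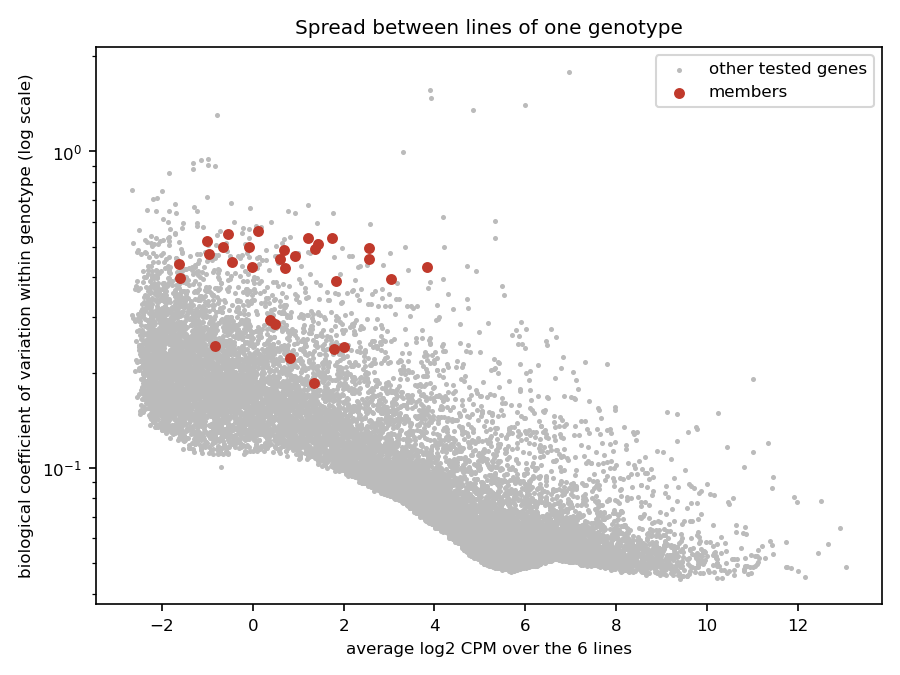
Biological coefficient of variation within genotype (log scale) against the average log2 CPM for the 30 tested members and all other tested genes. Members have a median of 0.453, against 0.147 for genes in the same range of average level.

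Members moved together from line to line. Across the 6 lines, the median Pearson r of log2 CPM was 0.92 over the 435 pairs of tested members, from 0.60 to 1.00, and 0.00 over all pairs of tested genes. After subtracting the mean of each genotype it was 0.94, against 0.00 over all pairs. The lines share library and scaling across genes, and genes are not independent replicates. Against Tyrobp, taken as the anchor, the 29 other members had a median r of 0.95, from 0.72 for Cd52 to 0.99 for Lyz2, and a median Spearman rho of 0.94. An r above 0.9 was found for 22 of these 29 and for 1.46% of all tested genes. Among the lower values were those of Cd14 (0.81), Ptprc (0.77), Csf2rb (0.75) and Itgb2 (0.83). These correlations are a description with no test, since the members were chosen with the order of SG3 and WT11 known. Without SG3 and WT11, the lines farthest from the median of Tyrobp, the median r over the remaining 4 lines was 0.69. Tyrobp was nearly flat over those 4 lines, at 0.815 to 0.940 CPM from 45 to 58 counts. Counting noise can therefore make up much of its range there, and the r over 4 lines do not sort the members reliably. Spi1, Itgam, Lcp1, Ctss, Mpeg1, Trem2, C1qb and Lyz2 then had r between 0.91 and 0.99, while Coro1a, Fcgr2b, Cd53 and Ptprc had r of -0.73, -0.43, -0.36 and -0.04. For these last 4 no positive relation was seen without SG3 and WT11.

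Genes outside the list were ranked by how similar their pattern was to that of the members. Of 482 tested genes of sufficient level and spread, 19 had r above 0.9 with the mean profile of the members across the 6 lines. The first 10 were Gm49339, Plek, Inpp5d, Fcrls, Ncf1, Stab1, C5ar1, Msr1, Cd36 and Cd93, with r from 0.98 to 1.00. Of the first 20, 4 (Plek, Ncf1, Msr1 and Ptpn6) were on the list of other myeloid genes described below. Plek encodes pleckstrin of platelets and leukocytes, Inpp5d the phosphatase SHIP1 of blood cells, Ncf1 a subunit of the phagocyte oxidase, and Stab1, Msr1 and Cd36 scavenger receptors, while Stab1, Cd36 and Cd93 are also expressed by endothelial cells. Stab1 was at 3.08, 3.31 and 8.49 CPM in SG1, SG2 and SG3 and at 3.72, 3.78 and 0.816 CPM in WT3, WT9 and WT11. Msr1 was at 1.56, 2.21 and 4.96 CPM in the SG lines and at 2.46, 2.09 and 0.566 CPM in the WT lines. Both had the order of lines seen in the members, and these similarities are a description over 6 lines with no test.

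A wider list of 55 myeloid genes, of which 54 matched an identifier by symbol and Lilrb4a did not, was mixed. Of its 37 tested genes, 22 had SG3 highest and WT11 lowest, the median SG3 to WT11 ratio was 3.20, and 0 passed the threshold in either direction. Genes of the phagocyte oxidase went apart, with Ncf1 and Ncf4 at ratios of 7.35 and 7.88 and Cyba, expressed in many cell types, at 65.7, 69.01 and 66.8 CPM in the SG lines and 66.2, 60.4 and 62.5 CPM in the WT lines. Runx1, Lyn, Syk, Gpnmb and Arhgdib, at mean levels of 2.68 to 148.9 RPKM, had ratios of 0.808, 0.505, 1.63, 1.24 and 0.727, so that high-level genes of that list did not follow the members. Timd4, of some resident macrophages, had no count in any library, and Lyve1 and Marco had at most 3 counts in any line.

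Markers of other blood lineages ranged from no count to a few CPM, apart from Ctsk on the osteoclast list. The summed level of 8 neutrophil genes was 0.0514 to 0.0940 CPM in SG and 0.0306 to 0.0833 CPM in WT lines, with S100a9, Elane and Ngp without a count in any library. That of 5 B cell genes was 0.0856 to 0.125 CPM in SG and 0.0833 to 0.100 CPM in WT lines, and that of 9 erythroid genes 0.291 to 0.381 and 0.300 to 0.5001 CPM. The 6 mast cell genes summed to 1.16 to 2.29 CPM in SG and 0.6495 to 1.15 CPM in WT lines. Most of this was Kit, the receptor of stem cell factor, which other cell types also carry, at 1.47, 2.02 and 0.788 CPM in SG1, SG2 and SG3 and 0.460, 0.780 and 0.333 CPM in WT3, WT9 and WT11. Fcer1a, Tpsb2 and Mcpt4 had no count in any library. The 6 genes of antigen presentation by class II molecules and of dendritic cells, H2-Aa and Flt3 among them, summed to 0.381 to 0.501 CPM in SG and 0.167 to 0.400 CPM in WT lines, and none reached the filter. The 9 T and NK cell genes summed to 2.10 to 4.02 CPM in SG and 2.11 to 2.75 CPM in WT lines, much of it Lck, at 0.940 to 1.78 CPM in SG and 1.04 to 1.62 CPM in WT lines. No neutrophil or B cell gene reached the filter. Across T and NK cell, erythroid and mast cell genes, 0 of the 6 tested had SG3 highest and WT11 lowest. Over all tested genes that order held in 6.30%, so that 6 genes are too few to be told apart from that share. Of 3 tested osteoclast genes, 1 fell, Ctsk, the protease cathepsin K that fibroblasts also make (log2 fold change -0.94, SE 0.12, edgeR adjusted p = 0.0166), a call lost without SG2, WT3 or WT11 and without SG3 and WT11 together. The 6 osteoclast genes summed to 13.95 to 18.7 CPM in SG and 26.8 to 32.1 CPM in WT lines. Most of this was Ctsk, at 12.6 to 17.2 CPM in SG and 25.2 to 30.2 CPM in WT lines, and Dcstamp had no count in any library. The 5 megakaryocyte genes summed to 3.97 to 5.10 CPM in SG and 4.501 to 4.79 CPM in WT lines. Of the 4 tested 2 had SG3 highest and WT11 lowest, among them Pf4, a chemokine of platelets that some macrophages also make, at 0.0906, 0.219 and 0.308 CPM in the SG lines and 0.180, 0.245 and 0.0167 CPM in the WT lines. The summed level of 7 endothelial genes was 53.1, 72.6 and 59.7 CPM in SG1, SG2 and SG3 and 54.5, 48.4 and 39.5 CPM in WT3, WT9 and WT11. Most of this was Kdr alone, at 49.9 to 70.5 CPM in SG and 38.1 to 51.9 CPM in WT lines, while Pecam1 and Cldn5 did not reach the filter. The sum of 7 epithelial genes was 28.1, 27.99 and 14.8 CPM in the SG lines and 17.2, 15.9 and 9.81 CPM in the WT lines. Most of that was Krt18, at 13.2 to 23.3 CPM in SG and 8.39 to 15.3 CPM in WT lines. Both sums were lowest in WT11 and neither was highest in SG3, and 0 of 10 tested genes of these 2 lists passed the threshold. The part of these cell types in the members' levels was not tested.

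The growth factor of macrophages was abundant and lower in SG lines. Csf1 was at 268, 256 and 250 CPM in SG1, SG2 and SG3, and at 294, 321 and 343 CPM in WT3, WT9 and WT11. The genotypes did not overlap (log2 fold change -0.31, SE 0.06, edgeR adjusted p = 0.0493), a call lost in 8 of 14 alternative fits, among them those without SG2, SG3, WT3, WT9 or WT11. All SG lines lay below all WT lines in 11.2% of all tested genes. The line with the least Csf1 was SG3, close to SG2, and the line with the most was WT11. Among the other lines, SG1 and SG2 were below WT3 and WT9 both in Csf1 and in the summed level of the members. A relation between Csf1 and the members was not tested. Ccl7, a chemokine that draws monocytes, was at 12.5, 8.13 and 7.52 CPM in the SG lines and at 26.7, 20.6 and 22.7 CPM in the WT lines (log2 fold change -1.32, SE 0.19, edgeR adjusted p = 0.0229). Its call was lost without SG2, WT3 or WT11, without SG3 and WT11 together, and with a robust prior. The 7 other tested ligands and partners of macrophage receptors, Il34, Ccl2, Cx3cl1 and Apoe among them, did not pass, so that 0 of 9 rose and 2 of 9 fell, against 0.809% and 1.10% of all tested genes.

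Since the members moved together, their promoters were searched for the letters GAGGAA, the core of sites that PU.1 prefers. RefSeq windows (GRCm38.p6), from 250 bases before to 50 after a gene's start, were at hand for 24 of the 34 members, as 30 windows. GAGGAA or its reverse complement TTCCTC was in 18 of 30 windows (60.0%), from 16 of 24 genes, and in 28.3% of all 32851 windows of the same length. The letters GGGCGG, of GC boxes, were in 26.7% of the members' windows and in 35.7% of all windows on either strand, and TATAAA in 13.3% and 13.6%. Matches of different motifs overlapped in 0 places in the members' windows. A match is a description of letters and no binding site. Below are the windows of the 4 most abundant members per length among those with a window, on the strand of the gene, with GAGGAA and TTCCTC in capitals.
Lyz2 (chr10:117282223-117282522, minus strand): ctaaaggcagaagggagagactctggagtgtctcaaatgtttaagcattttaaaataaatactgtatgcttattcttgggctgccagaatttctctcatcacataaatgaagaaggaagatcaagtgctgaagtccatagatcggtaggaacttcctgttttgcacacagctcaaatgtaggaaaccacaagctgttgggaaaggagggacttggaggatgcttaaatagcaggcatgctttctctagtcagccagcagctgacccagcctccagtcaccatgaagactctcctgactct
C1qb (chr4:136886151-136886450, minus strand): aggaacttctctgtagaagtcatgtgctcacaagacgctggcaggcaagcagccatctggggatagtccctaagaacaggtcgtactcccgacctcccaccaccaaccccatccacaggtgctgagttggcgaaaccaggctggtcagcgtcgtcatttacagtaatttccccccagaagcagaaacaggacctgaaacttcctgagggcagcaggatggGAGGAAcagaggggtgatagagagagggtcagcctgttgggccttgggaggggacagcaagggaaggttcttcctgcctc
Cd68 (chr11:69666121-69666420, minus strand): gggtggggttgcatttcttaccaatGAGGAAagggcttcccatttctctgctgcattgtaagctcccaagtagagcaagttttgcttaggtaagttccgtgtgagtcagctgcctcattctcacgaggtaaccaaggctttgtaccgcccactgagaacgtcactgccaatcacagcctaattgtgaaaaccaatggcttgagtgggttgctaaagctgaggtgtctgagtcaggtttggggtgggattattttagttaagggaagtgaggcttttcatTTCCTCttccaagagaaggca
Ctss (chr3:95526536-95526835, plus strand): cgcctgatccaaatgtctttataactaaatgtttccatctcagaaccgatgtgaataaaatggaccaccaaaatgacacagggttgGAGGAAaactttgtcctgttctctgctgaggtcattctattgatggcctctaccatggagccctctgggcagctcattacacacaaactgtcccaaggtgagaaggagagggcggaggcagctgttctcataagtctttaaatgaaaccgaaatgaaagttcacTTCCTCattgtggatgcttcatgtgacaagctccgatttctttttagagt
C1qb has 1 match, and Cd68 and Ctss have 2 each, while those letters are not in the window of Lyz2. All 4 genes had SG3 highest and WT11 lowest, but so had all 30 tested members, so that this order says nothing about the letters.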

How the data were processed

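Each deposited file gives 1 line's unnormalised read count for every gene in whole numbers, beside exon positions and lengths. The submitters' processing notes name Trimmomatic 0.36, STAR 2.5.2b, featureCounts of Subread 1.5.2, DESeq2 and the build GRCm38. The annotation release, strand setting and handling of multimapping reads are not given in the labels, so that overlapping genes and near-identical copies are uncertain. Symbols came from GENCODE M21 (GRCm38), with 49056 of 49315 identifiers matched. Sample titles gave the genotype and line number. Litters, culture days and sequencing runs are not named in the labels.

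Counts were tested in edgeR 4.0.16 (R 4.3.3). Genes were filtered with filterByExpr at its defaults (10 counts at the median library size in 3 lines), which left 16068. After TMM scaling, SG lines were compared with WT lines by the two-sided quasi-likelihood test with Benjamini-Hochberg adjustment over all genes tested at 0.05. Each SE is the absolute log2 fold change over the root of F. CPM use TMM-scaled library sizes, and RPKM divide them by the files' exon length. Correlations used log2 CPM with a prior count of 2. Replicates are lines from separate embryos, so that p-values reflect the spread between embryos. On simulated data for these 16068 genes, recovery was 50.7% for 67 genes with a 1.5-fold change, 71.6% for 67 with a 2-fold change and 90.9% for 66 with a 4-fold change, and 12 of 154 calls were false. The changed genes were drawn at random from the tested genes, whose median biological coefficient of variation was 0.0887, against 0.453 for the members. These recovery rates therefore do not apply to the members.

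The members and lists were chosen with earlier results of these data known. All members are named. Of other lists, genes past the threshold could be named, with the genes of highest level per length, and the 20 tested genes outside the list, with average log2 CPM of at least 0 and SD of at least 0.5, whose log2 CPM had the highest Pearson r with the mean z-score of the tested members. Other genes of the lists were named after their values were seen. Alternatives were other scalings, no count filter, DESeq2 1.42.0, a robust prior and leaving out lines. Promoter windows are from RefSeq (GRCm38.p6).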

Additional observations from a re-analysis of the deposited data

How the results depend on the processing

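The count of 0 members past the threshold held in all 14 alternatives, with lowest adjusted p from 0.0744 with no count filter to 0.629 without WT11. The median log2 fold change of the members was 0.55 to 0.57 under other scalings, with no count filter, with DESeq2 and with a robust prior. It was 0.00 to 0.81 when 1 line was left out, -0.42 without SG3 and WT11 and 0.97 without SG1 and WT9. The summed level, as log2 of the SG mean over the WT mean, was 0.57 with all lines, 0.03 to 0.83 when 1 line was left out and -0.32 without SG3 and WT11. The median pairwise correlation was 0.86 to 0.95 when 1 line was left out and 0.59 without SG3 and WT11. Over all genes, 306 passed, 959 with no count filter, 952 with DESeq2, 3 to 579 when 1 line was left out (579 without SG1, 3 without SG2, 222 without SG3, 24 without WT3, 460 without WT9, 29 without WT11), 51 without SG3 and WT11 and 703 without SG1 and WT9. The causes were not tested. Single members moved by more than 1 SE in 23 of 30 cases without SG3, 30 of 30 without SG3 and WT11 and 2 of 30 without SG1 and WT9, and in none under the other alternatives. No paired analysis was possible because the line numbers of the genotypes share only the number 3. Depth limits Aif1, Cd163, Clec4n and Clec7a, at 17 counts or fewer over a genotype.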
